A study of Mus musculus with 6 samples.

Results

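The 36 genes described here encode the glutathione system and its neighbours in oxidative defence: glutathione synthesis and recycling, glutathione peroxidases, glutathione S-transferases, catalase and superoxide dismutases, peroxiredoxins, the thioredoxin branch, and the NRF2 regulator with its inhibitor KEAP1. They were chosen by name, and each of the 36 names matched 1 of the 56940 genes listed per library. RNA was sequenced from wildtype C57BL/6 mouse lens capsules with their attached lens epithelial cells, as 3 libraries taken 5 days after removal of the fiber cell mass (a mouse model of cataract surgery) and 3 libraries taken at the operation itself (0 h). Each library pooled 5 capsules. In each mouse the first eye was operated on 5 days before the second, and both capsules were taken at the second operation, so a 0 h capsule comes from an animal with an operated fellow eye. The labels give neither age nor sex and do not say whether pools share mice. P-values therefore measure the spread between these pools.

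Glutathione is a tripeptide that the lens holds at an unusually high level, where it keeps proteins reduced and feeds enzymes that destroy peroxides. It is made in successive steps by glutamate-cysteine ligase and glutathione synthetase, is oxidised when peroxidases use it, and is returned to its reduced form by glutathione reductase with NADPH. NRF2 is a transcription factor that KEAP1 marks for degradation, and under oxidative or electrophilic stress it escapes and activates genes of glutathione, thioredoxin and quinone metabolism through antioxidant response elements. Loss of reduced glutathione is a known feature of cataract.

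The libraries held 6207387 to 8682659 gene counts at 5 days and 7709815 to 9774343 at 0 h. Levels are CPM, gene counts brought to a common library size by TMM, a normalisation on the bulk of genes. Fold changes are given on the log2 scale, 5 days divided by 0 h, each with a standard error (SE). A gene was called at an adjusted p under 0.05 by the quasi-likelihood test of edgeR (Benjamini-Hochberg over 14676 tested genes), the source of all adjusted p-values below. All 12 lens epithelium markers, checked for the labelled tissue, had a mean of at least 1 CPM at both times. Their summed level was 10200 to 10840 CPM at 5 days and 20190 to 21140 CPM at 0 h. Most of that sum was Col4a1, at a mean of 7276 CPM at 5 days and 14970 CPM at 0 h. Of the 12 markers 1 was called higher (Pax6), 8 were called lower and 3 were not called. Other cells also contributed RNA. All 16 macrophage and monocyte markers were higher at 5 days, with a sum of 589.5 to 843.8 CPM at 5 days and 23.7 to 50.07 CPM at 0 h, where Ccr2 had no counts. Of 10 neutrophil markers 3 were tested and rose, and the 10 summed to 15.6 to 27.2 CPM at 5 days and 0 to 0.329 CPM at 0 h. Ly6g, Mpo, Elane and Camp had no counts at 5 days, and 9 of the 10 had none at 0 h. The 3 tested genes were almost without counts at 0 h. Such genes, here and among the macrophage markers, passed the low-count filter through the 5 day libraries and could hardly come out lower. The sum of 14 fiber cell markers was 10690 to 34570 CPM at 5 days and 148400 to 172800 CPM at 0 h. Most of it was Cryaa, at a mean of 11190 CPM at 5 days and 62310 CPM at 0 h, and Crybb2, at 6009 and 53180 CPM. All 14 were called lower, and Birc7 had no counts at 5 days. In a bulk library fewer cells of a type and less RNA per cell cannot be told apart, and the part of these cell types in the changes below was not tested.

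Of the 36 genes 9 rose, 15 fell and 12 were not called. All 36 passed the low-count filter. Over all tested genes 25.1% were called higher and 22.5% lower. The 9 members that rose were thus near that background, and the share that fell (41.7%) was above it. The members were chosen with earlier results of these data known, so comparisons with the background are not independent of the data. At 2-fold or more, 4 members rose and 11 fell, against 14.5% higher and 10.9% lower over all tested genes. The median log2 fold change was -0.07 over the members and -0.01 over all tested genes. The groups of 3 libraries did not overlap for 27 members (75.0%), where the background was 58.1%. Scaling by total library size moved the log2 fold changes of all genes by a median of 0.13, and TMM computed without crystallin, mitochondrial and ribosomal RNA genes moved them by -0.16. The first of these gave 11 members higher and 15 lower and the second 6 higher and 17 lower, while the upward share of all calls was 62.9% and 40.3%, against 52.7% with standard TMM. Of the 15 members that fell, 8 had their lowest 5 day level in replicate 3. Among the 24 called members, 20 held their call and direction under every alternative tried.

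**Figure D1:**
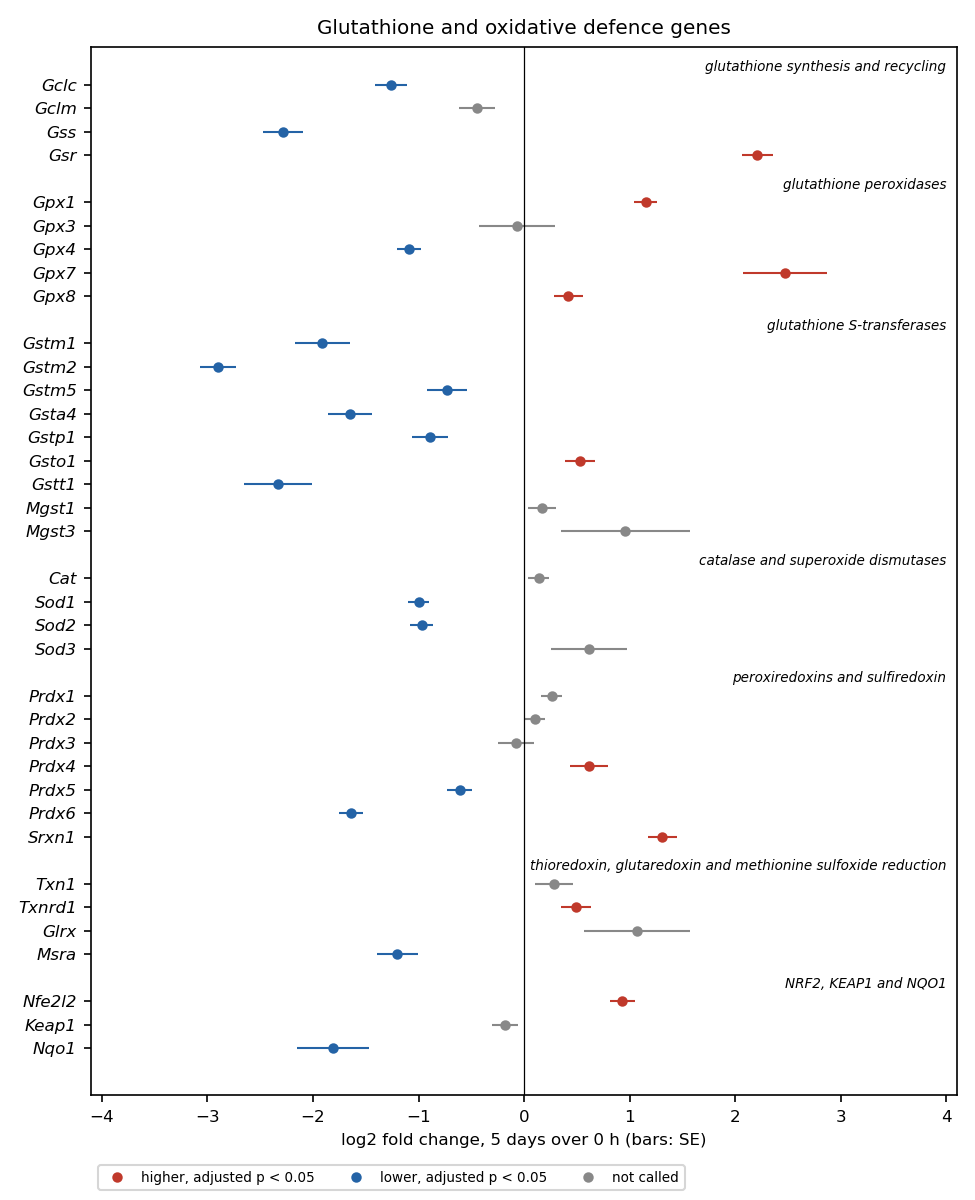
Log2 fold change of 5 days over 0 h (x axis) for each of the 36 genes, in blocks by role, with bars for the SE and colour for the call. The largest rises are Gpx7 at 2.47 and Gsr at 2.21, and the largest falls are Gstm2 at -2.90 and Gstt1 at -2.33.

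Levels between genes are compared per kb of merged exon. Merged exons join all annotated transcripts of a gene (10.01 kb for Sod2, 4.80 kb for Prdx6), and a gene that mainly makes a shorter transcript is placed too low. Orders and family shares per kb are therefore approximate, while comparisons of 1 gene between times do not depend on length. At 5 days the order began with Gstm1 (160.7 CPM per kb), Gpx3 (122.2), Gpx1 (74.4), Gpx4 (58.8) and Prdx5 (50.1). At 0 h it began with Gstm1 (601.6 CPM per kb), Gpx3 (128.2), Gpx4 (125.1), Gstm2 (78.0) and Prdx5 (76.6). Gsr stood at rank 10 at 5 days and rank 32 at 0 h, and Gss at rank 29 at 5 days and rank 9 at 0 h. At 0 h Gpx3 and Gpx4 differed by less than the spread of their libraries, as did Gstm2 and Prdx5, and at 5 days the wide spread of Gpx3 covered both its neighbours. The 36 genes together held 1999 ± 156 CPM at 5 days and 3166 ± 309 CPM at 0 h (SD, n = 3 each).

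RefSeq promoter windows (GRCm38.p6, from 250 bases before to 50 bases after the start) were present for 30 of the 36 genes and were searched on both strands for the core of the antioxidant response element, TGACNNNGC. A match occurred in 8 of the 30 genes, where 14.0% of all 27025 genes with a window had one. The 8 matches are shown because they put called and uncalled genes side by side. Each is written 5′ to 3′ on the strand of the motif, with the 9 matching bases in capitals and up to 10 bases on each side.
Nfe2l2, higher, chr2:75704885-75704913 (minus strand): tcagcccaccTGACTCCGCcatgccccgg
Srxn1, higher, chr2:152105542-152105570 (minus strand): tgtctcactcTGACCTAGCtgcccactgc
Txnrd1, higher, chr10:82859104-82859132 (minus strand): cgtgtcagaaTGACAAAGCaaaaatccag
Gstm5, lower, chr3:107895802-107895830 (plus strand): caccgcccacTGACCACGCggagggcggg
Sod1, lower, chr16:90220696-90220724 (minus strand): ggcctgagtcTGACCACGCccaccttggc
Gclm, not called, chr3:122245413-122245441 (minus strand): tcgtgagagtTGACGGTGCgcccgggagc
Prdx1, not called, chr4:116685456-116685484 (minus strand): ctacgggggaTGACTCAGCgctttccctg
Mgst1, not called, chr6:138140461-138140489 (minus strand): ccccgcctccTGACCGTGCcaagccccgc
Of the 8 genes with a match 3 rose, 2 fell and 3 were not called. Of the 22 genes with a window and no match 5 rose, 9 fell and 8 were not called. A match is only a run of letters, and no match says nothing of elements outside the window.

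The related motif TGAGTCA, bound by AP-1 and by NF-E2 family dimers, was found on either strand in 5 of the 30 genes (Srxn1, Gstm5, Prdx1, Glrx and Gstp1), against 5.9% of all genes with a window. Prdx1 held it at 237 and 131 bases before the start, and the nearer match overlaps its TGACNNNGC match. The Srxn1 window held it at 102 and 45 bases before the start. The windows of Srxn1 and Txnrd1, the members with a TGACNNNGC match that take part in the thioredoxin and peroxiredoxin cycle and rose, are printed on the plus strand, which is also the strand of the genes, with matches to either motif on either strand in capitals.
Srxn1, chr2:152105274-152105573: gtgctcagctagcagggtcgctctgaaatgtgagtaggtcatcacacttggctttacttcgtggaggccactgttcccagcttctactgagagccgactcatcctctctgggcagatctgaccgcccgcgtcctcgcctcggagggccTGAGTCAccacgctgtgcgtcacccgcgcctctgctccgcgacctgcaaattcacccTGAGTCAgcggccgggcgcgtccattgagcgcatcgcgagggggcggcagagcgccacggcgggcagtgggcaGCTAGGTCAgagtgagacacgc
Txnrd1, chr10:82858956-82859255: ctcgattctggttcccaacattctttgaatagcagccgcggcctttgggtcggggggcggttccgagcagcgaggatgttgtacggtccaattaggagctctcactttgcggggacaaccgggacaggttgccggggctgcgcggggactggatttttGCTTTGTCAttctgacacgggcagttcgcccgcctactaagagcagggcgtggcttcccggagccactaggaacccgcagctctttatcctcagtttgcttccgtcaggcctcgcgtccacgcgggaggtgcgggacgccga

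Of the 3 genes of glutathione synthesis 2 fell, Gclc and Gss, and Gclm was not called, while the recycling gene Gsr rose. The share called lower over all tested genes was 22.5%, and the share called higher 25.1%. Gclc (ENSMUSG00000032350), the catalytic subunit of glutamate-cysteine ligase and the rate-limiting enzyme of synthesis, had 35.2, 38.3 and 25.2 CPM at 5 days, against 77.7, 85.8 and 72.0 CPM at 0 h. Every 5 day library lay below every 0 h library, and the log2 fold change was -1.26 (SE 0.15, adjusted p = 2.28e-05). Gss (ENSMUSG00000027610), glutathione synthetase, which adds glycine in the last step, had 45.7, 55.5 and 27.9 CPM at 5 days, against 195.8, 219.9 and 209.2 CPM at 0 h. Gss was thus 4.86-fold lower at 5 days, with a log2 fold change of -2.28 (SE 0.19, adjusted p = 1.42e-06). Replicate 3 at 5 days was the lowest for both genes. It was also the lowest for the fiber cell markers, at a sum of 10690 CPM against 25390 and 34570 CPM in the other 5 day libraries. The lens epithelium markers summed to 10200 CPM there, against 10840 and 10520 CPM. Most of that sum was Col4a1, at 7116 CPM there against 7622 and 7091 CPM. Of the other epithelium markers Foxe3, Pax6, Cdh1, Pitx3, Six3, Prox1, Aldh1a1 and Npnt were lowest in that library. Gja1 and Slc2a1 were highest there, and Sox2 lay between. Foxe3 had 41.5 CPM there against 105.4 and 100.3 CPM, and Gja1 342.2 CPM against 212.6 and 255.9 CPM. The part of either cell type in the Gclc and Gss values was not tested. Gsr (ENSMUSG00000031584), glutathione reductase, had 70.7, 55.5 and 69.9 CPM at 5 days, against 11.9, 15.03 and 15.3 CPM at 0 h. It was 4.63-fold higher, with a log2 fold change of 2.21 (SE 0.15, adjusted p = 2.02e-07), and no 5 day library came near the 0 h range.

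The modifier subunit gene Gclm (ENSMUSG00000028124), whose protein raises the activity of the ligase, stood at 67.5, 76.3 and 42.2 CPM at 5 days and 83.1, 86.0 and 83.6 CPM at 0 h. The groups did not overlap, but the log2 fold change of -0.45 (SE 0.17) missed the threshold at an adjusted p of 0.0504. It was called lower under 7 of 14 alternatives, among them the fit without replicate 2 at 5 days (-0.63). It was not called without replicate 3 at 5 days (-0.24, adjusted p = 0.064) or with total library size (-0.32, adjusted p = 0.154). Within each library Gclm counts were 1.92, 1.99 and 1.67 times the Gclc counts at 5 days, against 1.07, 1.00 and 1.16 times at 0 h. This ratio does not depend on the scaling of libraries, and as it is not corrected for gene length only its change is read. The ratio was higher in every 5 day library, with a log2 difference of 0.79 (exact permutation test, two-sided p = 0.1, which is the lowest value the design allows).

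**Figure D2:**
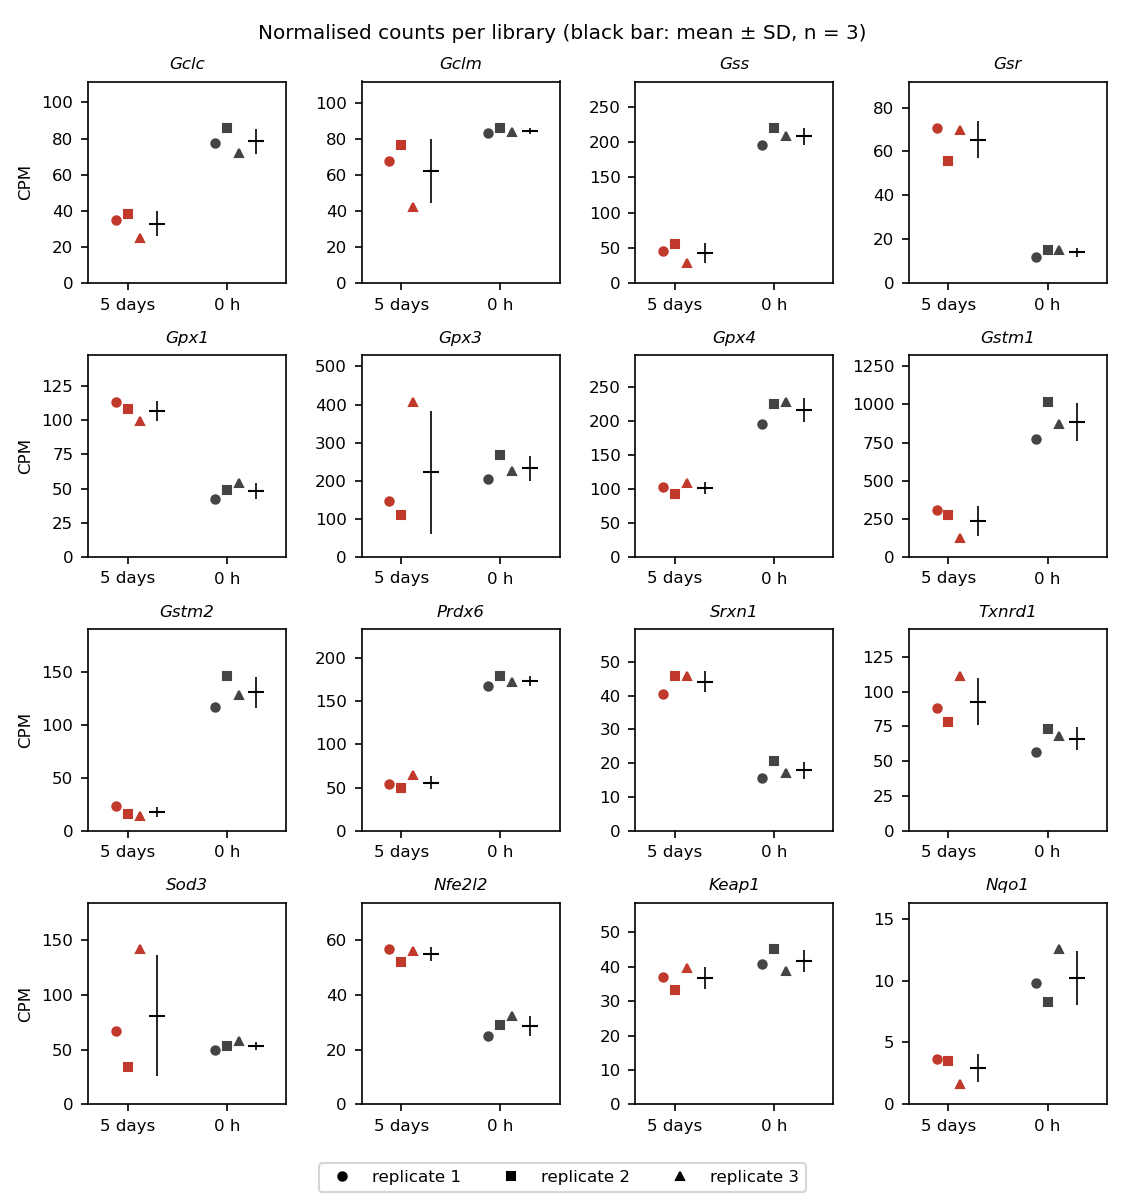
Normalised counts (CPM, y axis from 0) of 16 genes in the 3 libraries of 5 days and the 3 of 0 h, with marker shape for the replicate and a black bar for mean ± SD. Gss, Gstm2 and Prdx6 lie far apart in the low direction and Gsr in the high direction, whereas Gpx3 and Sod3 are set apart by replicate 3 at 5 days.

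The glutathione peroxidases, which use glutathione or thioredoxin-type thiols to reduce peroxides, went in different directions. Gpx1 (ENSMUSG00000063856), the abundant cytosolic selenoenzyme, had 113.6, 108.5 and 99.3 CPM at 5 days, against 42.2, 48.9 and 53.9 CPM at 0 h, a log2 fold change of 1.15 (SE 0.11, adjusted p = 5e-06). Gpx4 (ENSMUSG00000075706), which reduces lipid hydroperoxides in membranes and restrains ferroptosis, had 103.1, 91.9 and 108.8 CPM at 5 days, against 194.6, 224.6 and 227.7 CPM at 0 h, a log2 fold change of -1.09 (SE 0.11, adjusted p = 4.34e-06). Neither gene had overlapping groups. The share of Gpx1 among the 5 peroxidase messages, per kb of exon, was 25.6 ± 8.02% at 5 days and 10.3 ± 0.812% at 0 h, and that of Gpx4 was 19.7 ± 4.04% at 5 days and 38.6 ± 1.62% at 0 h (SD, n = 3 each).

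The peroxidases of the endoplasmic reticulum, Gpx7 and Gpx8, both rose. Gpx7 (ENSMUSG00000028597) had only 6.37, 5.90 and 9.63 CPM at 5 days, against 0.673, 1.65 and 1.55 CPM at 0 h, and its log2 fold change of 2.47 (SE 0.40, adjusted p = 0.000295) was the largest rise of the 36. Gpx8 (ENSMUSG00000021760) averaged 52.1 ± 5.51 CPM at 5 days and 38.8 ± 5.82 CPM at 0 h (SD, n = 3 each), a small rise of 0.42 (SE 0.14, adjusted p = 0.0224). The Gpx8 call was lost without replicate 1 at 0 h (0.30) and without replicate 1 (0.41) or replicate 3 (0.34) at 5 days, and with TMM without crystallin, mitochondrial and ribosomal RNA genes (0.26). Gpx3 (ENSMUSG00000018339), the secreted plasma peroxidase, had 146.6, 111.0 and 407.2 CPM at 5 days, against 203.4, 268.6 and 225.5 CPM at 0 h. The groups overlapped through replicate 3 at 5 days, and the log2 fold change of -0.07 (SE 0.36, adjusted p = 0.899) became -0.87 without that library (adjusted p = 3.63e-05). The Gpx3 log2 fold change was above 0 with total library size (0.07), without replicate 2 at 0 h (0.04), and without replicate 1 (0.16) or replicate 2 (0.27) at 5 days.

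Replicate 3 at 5 days also stood apart for Sod3 (ENSMUSG00000072941), the extracellular superoxide dismutase, at 141.8 CPM against 67.2 and 34.5 CPM in the other 5 day libraries and 49.6, 53.0 and 57.6 CPM at 0 h. Sod3 was not called (0.61, SE 0.36), had a log2 fold change of -0.09 without that library, and was called higher (0.99) without replicate 2 at 5 days. In the same library the 7 markers of pigmented iris and ciliary epithelium summed to 40.6 CPM, against 15.3 and 21.2 CPM in the other 5 day libraries, and none of the 7 had 0 counts in either group. They summed to 96.9 to 119.6 CPM at 0 h, where 80.3 to 91.7 CPM of the sum was Oca2, which had 0.657 to 2.71 CPM at 5 days. The 12 photoreceptor markers summed to 128.7 CPM there, against 75.6 and 48.4 CPM in the other 5 day libraries and 610.6 to 913.7 CPM at 0 h, and none had 0 counts in a group. The 7 endothelial markers summed to 51.6 CPM there, against 33.3 and 29.0 CPM in the other 5 day libraries and 7.95 to 14.8 CPM at 0 h, where Cldn5 had no counts. Their part in the Gpx3 and Sod3 values was not tested.

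**Figure D3:**
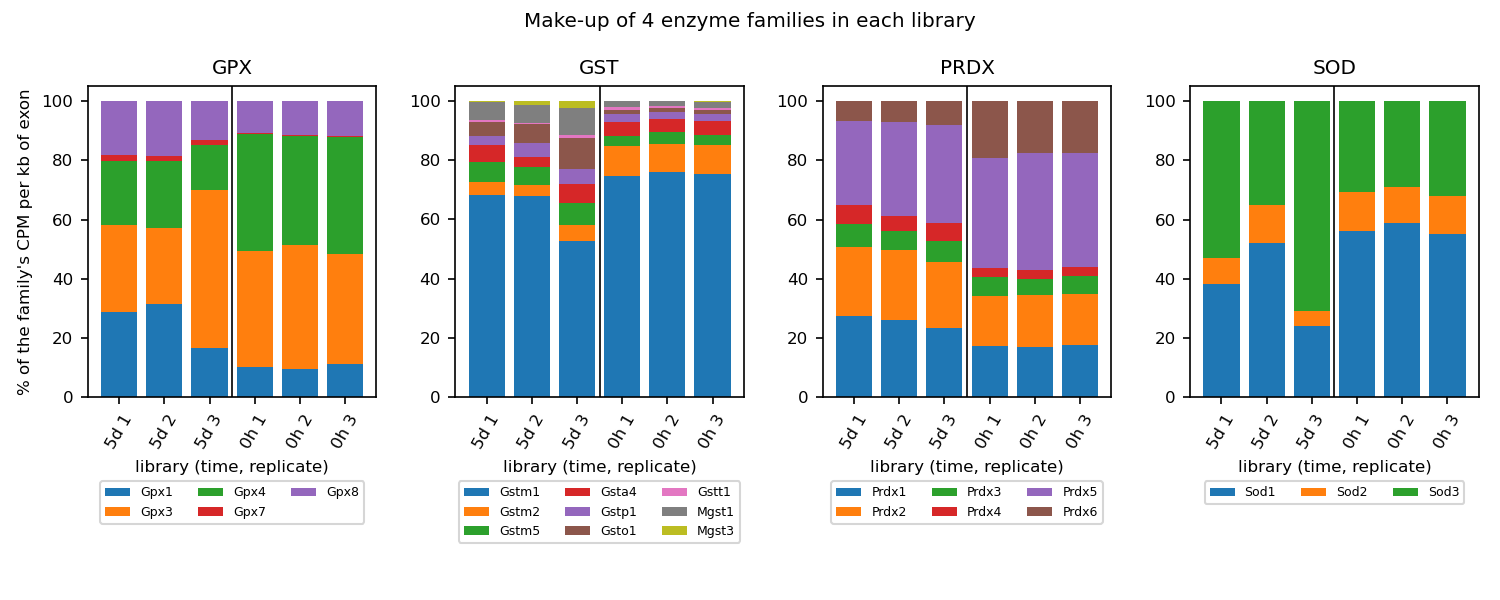
Share of each gene in its family's summed CPM per kb of exon (y axis, percent) in each library, for glutathione peroxidases, glutathione S-transferases, peroxiredoxins and superoxide dismutases. Within the peroxidases Gpx1 takes 16.5 to 31.6% at 5 days and 9.57 to 11.2% at 0 h, and Sod3 takes 70.8% of the dismutase signal in replicate 3 at 5 days.

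The glutathione S-transferases, which couple glutathione to electrophiles such as lipid aldehydes, fell for 6 of 9 genes (66.7%), and 1 rose (11.1%). Over all tested genes 22.5% fell and 25.1% rose. Together the 9 held 468.5, 418.1 and 254.9 CPM at 5 days, against 1050, 1358 and 1173 CPM at 0 h. Gstm1 (ENSMUSG00000058135), a cytosolic mu-class enzyme, had the highest level of the 36 genes per kb of exon at both times, 160.7 CPM per kb at 5 days and 601.6 CPM per kb at 0 h. Its libraries held 309.1, 273.9 and 127.1 CPM at 5 days, against 771.1, 1017 and 870.5 CPM at 0 h, a log2 fold change of -1.91 (SE 0.26, adjusted p = 6.87e-05). Gstm2 (ENSMUSG00000040562), of the same class, had 22.9, 16.2 and 14.0 CPM at 5 days, against 117.0, 147.0 and 128.9 CPM at 0 h. It was 7.49-fold lower, the largest fall of the 36 genes, with a log2 fold change of -2.90 (SE 0.17, adjusted p = 5.74e-08).

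The class that detoxifies the lipid aldehyde 4-hydroxynonenal followed, with Gsta4 (ENSMUSG00000032348) at 22.1, 11.6 and 12.6 CPM at 5 days against 43.4, 51.7 and 48.4 CPM at 0 h (log2 fold change -1.65, SE 0.21). The theta-class Gstt1 fell by 2.33 (SE 0.32) at a low level of 1.64 ± 0.341 CPM at 5 days and 8.26 ± 0.707 CPM at 0 h (SD, n = 3 each), and Gstp1 fell by 0.89 (SE 0.17). Gstm5 fell by 0.73 (SE 0.19), a call lost without replicate 2 at 0 h (-0.57, adjusted p = 0.0519). The omega-class Gsto1, which reduces glutathione mixed disulfides and dehydroascorbate, was the member that rose, at 30.1, 35.5 and 35.5 CPM at 5 days against 20.7, 25.3 and 23.7 CPM at 0 h (log2 fold change 0.53, SE 0.14). The membrane-bound transferases Mgst1, at 30.8 to 39.5 CPM at 5 days and 29.0 to 31.9 CPM at 0 h (0.17, SE 0.13), and Mgst3, at 0.796 to 4.05 CPM at 5 days and 0.943 to 2.62 CPM at 0 h (0.96, SE 0.61), were not called and their groups overlapped. The mu-class genes resemble each other closely in sequence, as do the Gstp genes, and how reads were divided within each class is uncertain.

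Of 19 other transferase genes 8 were tested, and 1 rose and 4 fell, with a median of -0.50. Gstm7, with the largest fall and the highest CPM of the called genes (mean over all 6 libraries, not corrected for length, here and for the lists below), had 5.09, 3.39 and 1.86 CPM at 5 days, against 21.6, 34.1 and 32.3 CPM at 0 h (log2 fold change -3.14, SE 0.30). Hpgds, the prostaglandin D synthase found in immune cells, was the gene that rose, by 2.18 (SE 0.53), and the macrophage markers given above rose in the same libraries. The count of 4 lower was 2 without replicate 3 at 0 h. No gene was called higher at a filter of 2 CPM in 3 libraries, and 2 were with no filter.

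Of the superoxide dismutases, which turn superoxide into hydrogen peroxide, the intracellular pair fell. Sod1 (ENSMUSG00000022982), the cytosolic copper-zinc enzyme, had 51.2, 54.3 and 51.2 CPM at 5 days, against 96.0, 113.9 and 104.6 CPM at 0 h (2.01-fold lower, log2 SE 0.10, adjusted p = 5.7e-06). Sod2 (ENSMUSG00000006818), the mitochondrial manganese enzyme, had 29.3, 32.9 and 27.7 CPM at 5 days, against 55.4, 59.1 and 61.2 CPM at 0 h (log2 fold change -0.97, SE 0.11, adjusted p = 2.24e-05). Sod2 counts were 0.573 ± 0.033 of the Sod1 counts at 5 days and 0.56 ± 0.0357 at 0 h (SD, n = 3 each), a log2 difference of 0.03 (exact permutation test, two-sided p = 0.7). Catalase (Cat), which breaks down hydrogen peroxide, was not called at 0.14 (SE 0.10), with 47.6 to 52.7 CPM at 5 days and 45.3 to 46.5 CPM at 0 h. With total library size Cat was called higher (0.27), and with TMM without crystallin, mitochondrial and ribosomal RNA genes its value was -0.02.

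Of the 6 peroxiredoxins, thiol peroxidases that also handle hydrogen peroxide, 1 rose, 2 fell and 3 were not called. The shares over all tested genes were 25.1% higher and 22.5% lower. Prdx6 (ENSMUSG00000026701), the 1-cysteine enzyme that is reduced by glutathione and repairs oxidised phospholipids, had 53.8, 48.9 and 64.3 CPM at 5 days, against 167.8, 179.7 and 172.3 CPM at 0 h, a log2 fold change of -1.64 (SE 0.11, adjusted p = 2.66e-07). Its share of peroxiredoxin messages per kb was 7.18 ± 0.618% at 5 days and 18.1 ± 1.11% at 0 h (SD, n = 3 each). Prdx5 (ENSMUSG00000024953) also fell, to 99.5, 101.5 and 120.8 CPM at 5 days, against 142.1, 182.7 and 167.0 CPM at 0 h (log2 fold change -0.61, SE 0.12). The cytosolic Prdx2 had 107.7 to 117.0 CPM at 5 days and 93.7 to 114.4 CPM at 0 h, and the mitochondrial Prdx3 13.6 to 18.6 CPM at 5 days and 17.2 to 18.4 CPM at 0 h. Both overlapped between the times and were not called (0.10, SE 0.10, and -0.08, SE 0.17). The cytosolic Prdx1 averaged 125.6 ± 10.7 CPM at 5 days and 104.9 ± 9.55 CPM at 0 h (SD, n = 3 each), a difference of 0.26 (SE 0.10) that missed the threshold (adjusted p = 0.0605). It was called higher with total library size (0.39) and without replicate 2 (0.31) or replicate 3 (0.27) at 5 days. Prdx4 (ENSMUSG00000025289), the endoplasmic reticulum member, rose by 0.61 (SE 0.18, adjusted p = 0.0153), a call lost without replicate 1 at 0 h (0.53) or replicate 1 at 5 days (0.51), and with TMM without crystallin, mitochondrial and ribosomal RNA genes (0.45).

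Sulfiredoxin (Srxn1, ENSMUSG00000032802), the enzyme that repairs over-oxidised peroxiredoxins, had 40.6, 46.0 and 46.0 CPM at 5 days, against 15.6, 20.7 and 17.2 CPM at 0 h. Its log2 fold change was 1.31 (SE 0.14, adjusted p = 1.06e-05), and the lowest 5 day library lay well above the highest 0 h library. Its window, printed above, holds matches to both motifs, as do those of Gstm5, which fell, and Prdx1, which was not called. The TGACNNNGC match of Srxn1 lies 28 bases after the start. The part of these motifs in the Srxn1 values was not tested.

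In the thioredoxin branch, Txnrd1 (ENSMUSG00000020250), the selenoenzyme that reduces thioredoxin, had 88.3, 78.2 and 111.5 CPM at 5 days, against 56.8, 73.2 and 68.3 CPM at 0 h (log2 fold change 0.49, SE 0.14, adjusted p = 0.0127). The Txnrd1 call was lost without replicate 1 at 0 h (0.38) and with TMM without crystallin, mitochondrial and ribosomal RNA genes (0.32). Thioredoxin itself (Txn1) was not called at 0.28 (SE 0.18), with 25.5 to 36.6 CPM at 5 days and 21.8 to 31.9 CPM at 0 h. Msra (ENSMUSG00000054733), which repairs oxidised methionine, fell to 8.75, 6.78 and 8.32 CPM at 5 days, against 16.3, 19.1 and 19.3 CPM at 0 h (log2 fold change -1.20, SE 0.19, adjusted p = 0.000245). Glutaredoxin (Glrx) was low, at 3.16 ± 1.10 CPM at 5 days and 1.51 ± 0.887 CPM at 0 h (SD, n = 3 each), and was not called (1.07, SE 0.50), though it was called higher without replicate 3 at 0 h (1.63, adjusted p = 0.0426).

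A further 18 genes, all tested, are thioredoxin, glutaredoxin, sestrin and methionine sulfoxide reductase genes and the peroxidase gene Pxdn. Of these 6 rose (33.3%) and 5 fell (27.8%), against 25.1% and 22.5% over all tested genes, with a median of -0.15. Txnip, which binds and inhibits thioredoxin, rose furthest, to 41.5, 54.9 and 62.4 CPM at 5 days against 9.97, 10.1 and 13.2 CPM at 0 h (log2 fold change 2.26, SE 0.18). Sesn1, a stress-induced sestrin, fell furthest, by 1.73 (SE 0.11). Pxdn, the matrix peroxidase that cross-links type IV collagen, was the called gene of highest CPM and rose by 1.27 (SE 0.13), with 1658 to 2157 CPM at 5 days and 745.6 to 831.5 CPM at 0 h.

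**Figure D4:**
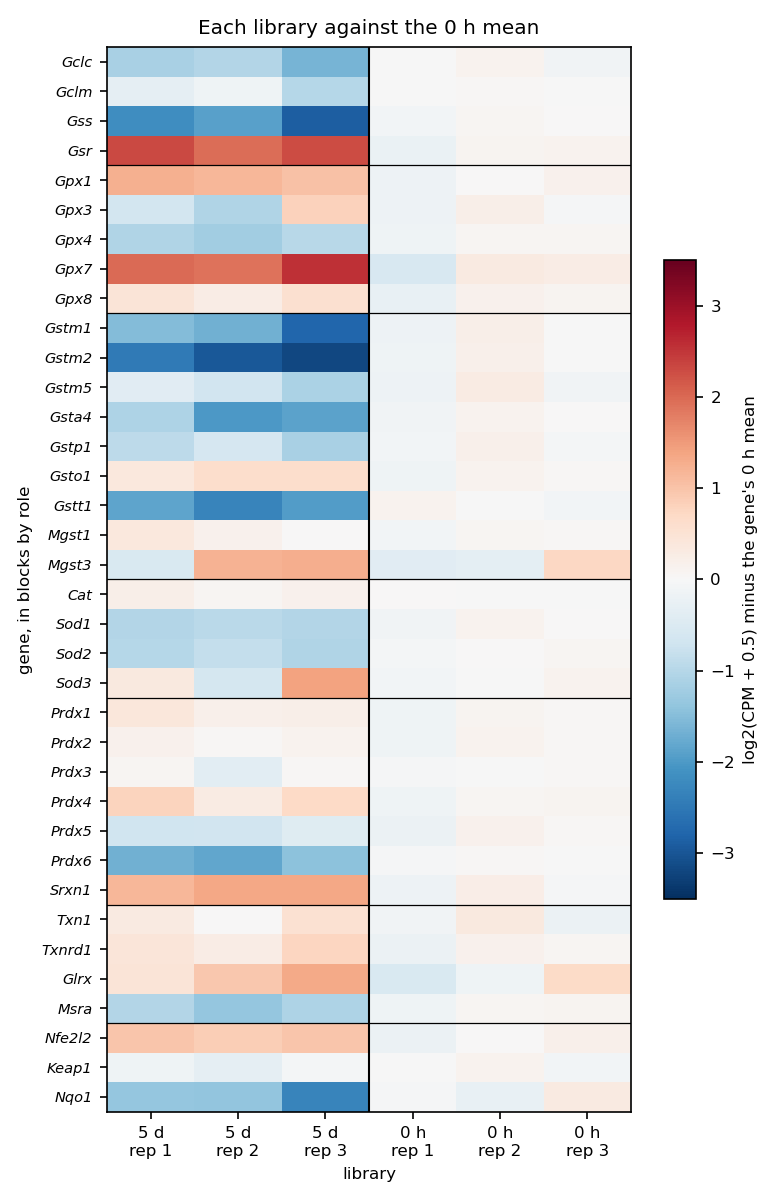
Each library's log2(CPM + 0.5) minus the gene's 0 h mean (colour, red above and blue below) for the 36 genes in blocks by role, with 5 day libraries left of the line and 0 h libraries right of it. Gsr, Gpx1, Srxn1 and Nfe2l2 are red in all 3 libraries of 5 days, and Gss, Gstm2 and Prdx6 are blue in all 3.

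The NRF2 gene Nfe2l2 (ENSMUSG00000015839) rose. It had 56.5, 52.0 and 56.0 CPM at 5 days, against 24.9, 29.0 and 32.2 CPM at 0 h, and these groups lay far apart. The log2 fold change was 0.93 (SE 0.12, adjusted p = 5.57e-05). Its inhibitor Keap1 (ENSMUSG00000003308) had 37.1, 33.3 and 39.6 CPM at 5 days and 40.9, 45.1 and 38.9 CPM at 0 h, groups that overlapped, and was not called (-0.18, SE 0.12). Keap1 was called lower (-0.35) with TMM without crystallin, mitochondrial and ribosomal RNA genes. Within a library, Keap1 counts were 0.656, 0.640 and 0.708 of the Nfe2l2 counts at 5 days, against 1.64, 1.56 and 1.21 at 0 h, a log2 difference of -1.13 (exact permutation test, two-sided p = 0.1, again the lowest value possible). Nqo1 (ENSMUSG00000003849), the quinone reductase often used as a readout of NRF2, went the other way from Nfe2l2, with 3.66, 3.52 and 1.64 CPM at 5 days, against 9.83, 8.23 and 12.5 CPM at 0 h (log2 fold change -1.81, SE 0.34, adjusted p = 0.00082).

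Of 22 genes commonly listed as NRF2 targets that are not among the 36, 20 were tested, and 8 rose and 5 fell, with a median of 0.31. Over all tested genes 25.1% rose and 22.5% fell. The share of these targets that rose was above that background, and the share that fell was near it. Akr1b8, an aldo-keto reductase, rose furthest, at 12.3, 4.90 and 9.63 CPM at 5 days against 0.539, 0.110 and 0 CPM at 0 h (log2 fold change 5.35, SE 0.67). Akr1b3, aldose reductase, which makes sorbitol in the lens, fell furthest, by 1.24 (SE 0.11). Aldh3a1, an aldehyde dehydrogenase abundant in the cornea, was the called gene of highest CPM and fell by 0.92 (SE 0.19), with 345.6 to 637.9 CPM at 5 days and 795.2 to 1074 CPM at 0 h. Hmox1, haem oxygenase, chosen for mention after its values were seen, was not called at 0.06 (SE 0.34). The count of 8 higher was 5 without replicate 1 at 5 days and 5 with TMM without crystallin, mitochondrial and ribosomal RNA genes, and the count of 5 lower was 3 with total library size.

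Of 16 regulators of NRF2 15 were tested, and 7 rose and 3 fell, with a median of 0.30. The share of these regulators that rose was above the 25.1% over all tested genes. The share of them that fell was near the 22.5% over all tested genes. The largest rise was in Bach1, a repressor that competes with NRF2 at the same elements, with 54.1, 54.6 and 60.7 CPM at 5 days against 12.7, 20.4 and 13.0 CPM at 0 h (log2 fold change 1.87, SE 0.17). The largest fall was in Btrc, a ubiquitin ligase adaptor that also targets NRF2, at -0.57 (SE 0.12). Nfe2l1, a relative of NRF2 and the called gene of highest CPM, rose by 0.31 (SE 0.10). Its call was lost without any of the 0 h libraries (0.26 to 0.33), without replicate 1 at 5 days (0.26) and with TMM without crystallin, mitochondrial and ribosomal RNA genes (0.15). The last of these scalings gave 4 regulators higher.

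Of 24 genes that supply, export and break down glutathione and its precursors 23 were tested, with a median of -0.53. Among them 5 rose (21.7%) and 11 fell (47.8%), against 25.1% and 22.5% over all tested genes. Slc3a2, the heavy chain of the cystine and amino acid exchangers, was the called gene of highest CPM, at 303.5, 298.0 and 232.2 CPM at 5 days against 456.2, 504.9 and 500.9 CPM at 0 h (log2 fold change -0.81, SE 0.12). Slc7a11, the light chain of the cystine exchanger, chosen for mention after its values were seen, also fell, with 216.6 to 341.5 CPM at 5 days and 343.2 to 382.6 CPM at 0 h (-0.42, SE 0.15). Slc1a1, a glutamate and cysteine transporter, fell furthest, by 2.60 (SE 0.57), at under 7 CPM in every library. Anpep, a surface aminopeptidase that cleaves glutathione breakdown products and is also carried by myeloid cells, rose furthest, at 76.7, 67.6 and 74.7 CPM at 5 days against 5.12, 4.50 and 5.48 CPM at 0 h (log2 fold change 3.86, SE 0.14).

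**Figure D5:**
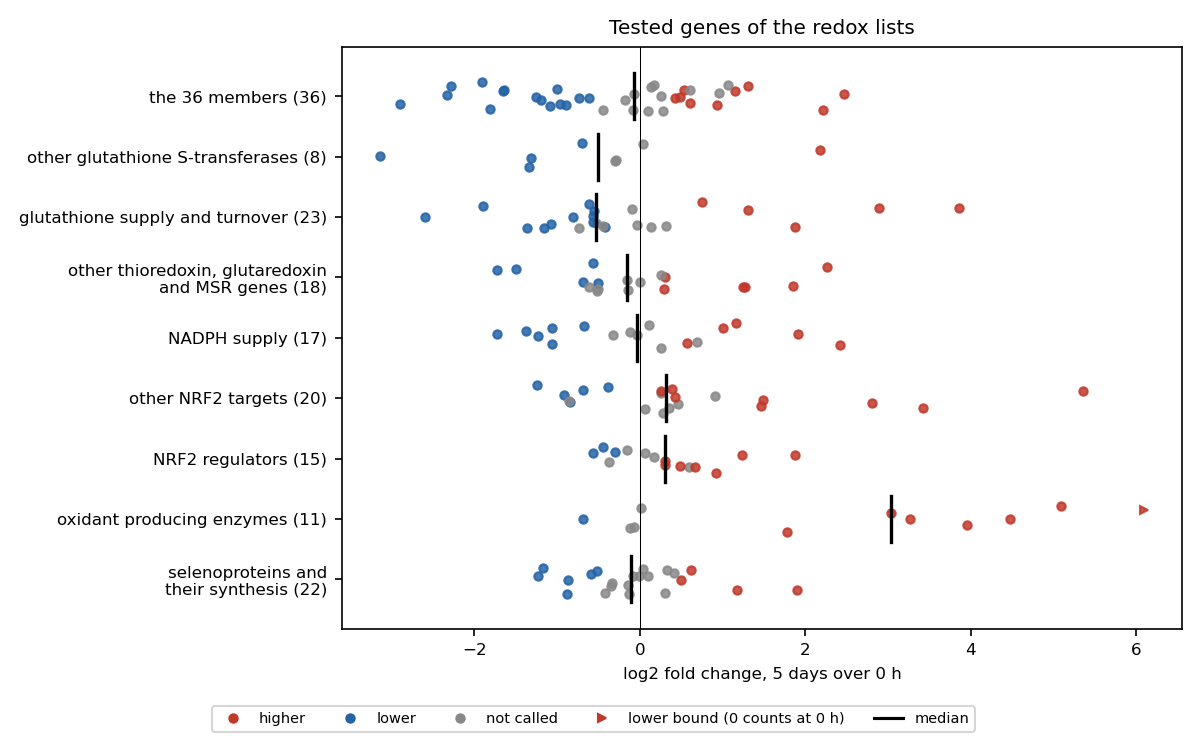
Log2 fold change of 5 days over 0 h (x axis) for each tested gene of the 36 members and of 8 other redox gene lists, with the number tested in brackets, colour for the call and a black line for the median. The transferase and glutathione supply lists have medians of -0.50 and -0.53, and the oxidant producing enzymes a median of 3.04. Of the 24 oxidant producing genes 11 were tested, and those almost without counts at 0 h passed the filter through the 5 day libraries.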

How the data were processed

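Each deposited file gives whole read counts by Ensembl identifier. Per the submitters' processing notes they were made by the authors with HISAT2 and HTSeq on GRCm39, and edgeR is also named. The sources used here give no versions, annotation release or strand setting. Per the labels' protocols, a stranded total RNA kit for very low input (SMARTer Pico) made the libraries. The 5 HTSeq summary entries (32.26 to 42.55% of reads) were left out. Symbols and merged exon lengths came from GENCODE M21 (GRCm38), by Ensembl identifier, and no gene coordinates from it were used. Without the strand setting, counts of members that share exon bases with genes on the other strand are uncertain (Prdx5 with Trmt112 over 19.1% of its exon bases, Gstm5 with 4933431E20Rik over 13.9%, Keap1 with Gm16754 over 10.9%, and Gss, Prdx2 and Gclm over smaller parts).

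Genes were kept by edgeR's default filter and tested with edgeR 4.0.16 in R 4.3.3 on TMM-scaled counts. The SE is the log2 fold change divided by the square root of the test's F. Ratios within a library used exact two-sided permutation. The tests were checked on simulated counts in which few genes changed, with rises and falls drawn alike. That setting differs from these data, so the check does not cover how calls depend on scaling. The alternatives were DESeq2 size factors, total library size, TMM factors that leave out crystallin, mitochondrial and ribosomal RNA genes, no filter, 2 CPM in 3 libraries, DESeq2 1.42.0, limma-voom (limma 3.58.1), a replicate block and each library left out. All members are named. Each other list contributes its called gene of highest level, largest rise and largest fall. 1 gene that this rule names is not reported here. The members and lists were chosen with earlier results of these data known.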

Additional observations from a re-analysis of the deposited data

How the results depend on the processing

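Each of the 36 genes was refitted under 14 alternatives. Leaving out 1 library at a time gave 6 to 11 members higher (9 with all libraries) and 14 to 16 lower (15 with all libraries), and for all genes called 6151 to 6890 (6984 with all libraries). The fits that kept all libraries gave 6 to 11 members higher and 15 to 17 lower. Calls were lost for 4 members (Gpx8, Gstm5, Prdx4 and Txnrd1) and gained for 7 (Gclm, Gpx3, Cat, Sod3, Prdx1, Glrx and Keap1) under at least 1 alternative. Signs turned only for genes that were not called: Gpx3 with total library size (0.07) and in 3 of the fits that left out a library (range of those fits -0.87 to 0.27), Cat (-0.02) and Prdx2 (-0.06) with TMM without crystallin, mitochondrial and ribosomal RNA genes, Sod3 without replicate 3 at 5 days (range with a library left out -0.09 to 0.99), and Prdx3 with total library size (0.04) and without replicate 2 at 5 days (range with a library left out -0.16 to 0.06). With no low-count filter Sod3 was called higher (0.61, adjusted p = 8.97e-06). The log2 difference of the Sod2 to Sod1 ratio, 0.03, ranged from -0.02 to 0.07 with 1 library left out, that of Gclm to Gclc from 0.74 to 0.86 and that of Keap1 to Nfe2l2 from -1.26 to -1.04. A replicate block on the numbers in the titles gave 9 members higher, 16 lower and 6738 for all genes called. Deviations of libraries with the same number correlated at 0.0385, -0.0897 and 0.0434, and those with different numbers at -0.0949 to 0.0653. With 3 libraries per time these values show no pairing by number but cannot tell whether pools share mice. A block on the numbers in the library names was not run, since the name of replicate 3 at 5 days carries no number of a 0 h library. For the other redox lists, every setting but total library size was chosen after seeing the data. Low counts limit Gpx7, Gstt1, Mgst3, Glrx and Nqo1, and no scaling used here measures total RNA per cell.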

Other observations

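Enzymes that supply NADPH, the reductant that glutathione reductase and thioredoxin reductase draw on, numbered 17, all tested. Of these 5 rose (29.4%) and 6 fell (35.3%), against 25.1% and 22.5% over all tested genes, and the median was -0.04 on the log2 scale. Tkt, transketolase of the pentose phosphate pathway, had both the highest CPM of the called genes and the largest fall, with 707.2, 734.1 and 596.8 CPM at 5 days against 2164, 2249 and 2291 CPM at 0 h (log2 fold change -1.72, SE 0.12, adjusted p = 3.5e-07). Aldh1l2, a mitochondrial folate enzyme that yields NADPH, rose furthest, at 22.8, 19.8 and 34.9 CPM at 5 days against 3.10, 3.18 and 8.23 CPM at 0 h (log2 fold change 2.42, SE 0.35). Both isocitrate dehydrogenases that make NADPH were called, in opposite directions, which was noticed after the values were seen: the cytosolic Idh1 had 99.0 ± 8.46 CPM at 5 days and 44.4 ± 1.35 CPM at 0 h, and the mitochondrial Idh2 57.3 ± 3.58 CPM at 5 days and 149 ± 11.4 CPM at 0 h (SD, n = 3 each).

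Of 24 oxidant producing genes 11 were tested, and 7 rose (63.6%, against 25.1% over all tested genes). Genes almost without counts at 0 h passed the filter through the 5 day libraries and could hardly come out lower. Of the phagocyte NADPH oxidase, Cybb, Cyba, Ncf1, Ncf4 and Rac2 rose, and the other genes that rose were Nox4 and Xdh. Ncf4 had 10.3, 6.66 and 8.10 CPM at 5 days and no counts at 0 h, at least 68.2-fold higher against a floor of 3 counts over the 0 h libraries, which covers counting error alone. The macrophage and monocyte markers and the 3 tested neutrophil markers rose in the same libraries, with the sums and the filter limit given above. Their part in these values was not tested.

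Selenoproteins other than the members, with the genes that insert selenocysteine, numbered 25. Tests on 22 gave 4 that rose (18.2%) and 6 that fell (27.3%), and a median of -0.11. These shares were near the 25.1% and 22.5% over all tested genes. Selenof, an endoplasmic reticulum selenoprotein, was the called gene of highest CPM and rose by 0.50 (SE 0.10). Eefsec, the elongation factor for selenocysteine, fell furthest, at 9.39, 11.8 and 8.65 CPM at 5 days against 24.6, 25.1 and 20.1 CPM at 0 h (log2 fold change -1.23, SE 0.18). Dio2 had the largest rise (1.90, SE 0.59), a call lost without any of the 0 h libraries (1.70 to 2.03) or replicate 1 at 5 days (1.31). The count of 4 higher was 2 without replicate 2 at 0 h and 2 without replicate 1 at 5 days.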
